A study of Mus musculus with 36 samples.

Results

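The genes that write, erase and read DNA methylation were followed from neural stem cells (NSCs) into the extracellular vesicles (EVs) that those cells secreted. The set holds 10 genes, taken by symbol from the 40205 genes of the count tables, and all 10 were found: the DNA methyltransferases Dnmt1, Dnmt3a and Dnmt3b with the maintenance factor Uhrf1, the TET dioxygenases Tet1, Tet2 and Tet3, and the methyl-CpG-binding proteins Mbd1, Mbd2 and Mbd3. RNA was sequenced from 18 cell and 18 EV samples of neurosphere cultures, which were grown from the dorsal telencephalon of C57BL/6J mouse fetuses at gestational day 12.5. The genotype is labelled WT, and the study's methods name the stock as Ai14, a fluorescent reporter line. Fetuses of 1 pregnancy were pooled by sex, so that each of 3 pregnancies (sets 3, 4 and 5) gave 1 female and 1 male culture, and each of these 6 cultures was exposed for 5 days to 0, 120 or 320 mg/dL ethanol. A location and dose therefore had 6 libraries, 3 female and 3 male, and the 3 doses of a culture share its cells.

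DNA methylation in mammals is laid down at CpG sites. Dnmt3a and Dnmt3b methylate sites that were unmethylated, whereas Dnmt1 copies the mark onto the new strand after replication and is brought to hemimethylated DNA by Uhrf1. TET enzymes oxidise 5-methylcytosine to 5-hydroxymethylcytosine, a mark that is abundant in neurons, and start its removal, while MBD proteins bind methylated CpGs, except that mammalian Mbd3 binds them poorly and acts as a subunit of the NuRD chromatin remodelling complex. Mutation of the human Dnmt3a counterpart causes an overgrowth syndrome with intellectual disability, and the family is studied in the fetal cortex for its part in the change from neurogenesis to gliogenesis.

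Cell libraries held 26.6 to 55.3 M counts and EV libraries 0.959 to 5.51 M. Behind the values stood 905 to 9067 counts of Dnmt3a per EV library, but 3 to 27 of Dnmt3b and 9 to 118 of Mbd1. Levels are given as normalized CPM, a library's counts divided by its total in mega counts (M) after scaling by the trimmed mean of M-values (TMM), and intervals and standard errors (SE) cover the spread between libraries. Of 11 stem cell markers 9 had a median of at least 10 counts in cells, with summed levels of 2686 to 4171 normalized CPM in cells and 946 to 1413 in EVs. The exceptions, Sox2 and Sox1, were listed at 0 in all 36 libraries, whereas Sox2ot, the transcript that surrounds Sox2, had a median of 21.7 in cells. All 6 neuron markers, 3 of 4 astrocyte markers and 4 of 5 oligodendrocyte markers also had a median of at least 10 counts in cells. Their sums there were 431 to 897, 19.7 to 248 and 36.3 to 153 normalized CPM. The microglia markers summed to at most 0.582 in cells, those of endothelium to 2.17 and those of meninges and fibroblasts to 2.65. Yet 1 of 4, 2 of 3 and 1 of 3 of these markers had a median of at least 10 counts there. That count is thus a low bar in the cell libraries.

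Per kilobase of annotated exon, the members had a different order in EVs than in cells. In cells Dnmt1 had the highest median, 7.81 normalized CPM per kb, followed by Mbd2 at 4.96, Dnmt3a at 4.27, Uhrf1 at 3.91, Tet3 at 3.11, Tet2 at 2.90, Mbd1 at 2.38, Mbd3 at 1.61, Tet1 at 0.860 and Dnmt3b at 0.471. All 9 pairs of neighbours in this order overlapped in range, and Dnmt1 was above Mbd2 in 10 of 18 cell libraries. In EVs Dnmt3a stood first with 95.7 normalized CPM per kb and Tet3 second with 35.3, and neither range overlapped that of the next gene by median. The range of Tet3, which began at 14.7 per kb, did overlap those of Uhrf1 (up to 17.8) and Mbd3 (up to 16.8). The other 8 medians lay between 5.24 for Dnmt1 and 0.797 for Dnmt3b, and each of these overlapped its neighbour in range. Dnmt3b was thus the lowest member per kb in both locations.

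**Figure D1:**
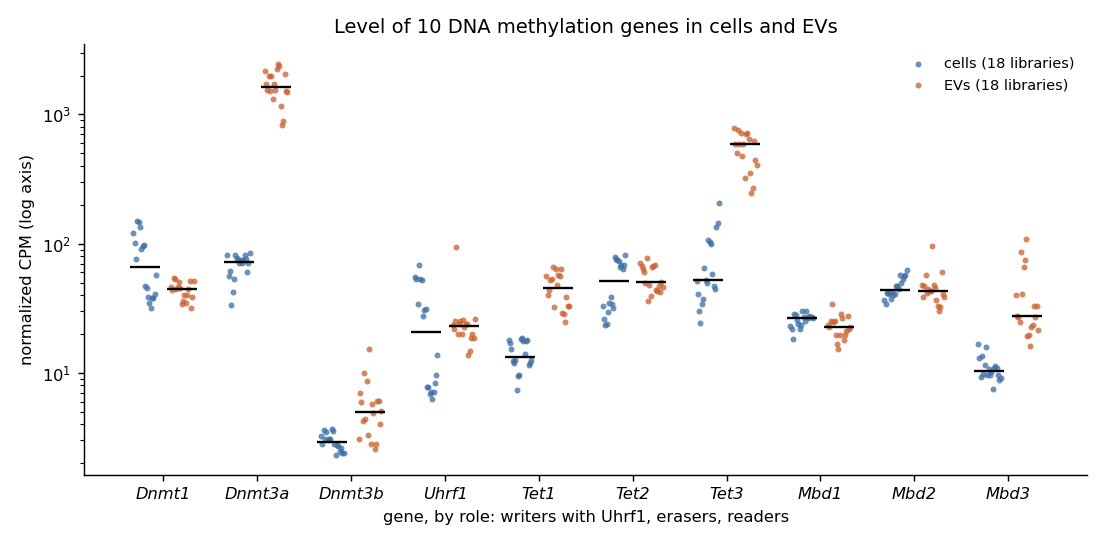
Normalized CPM (y, log axis) of each gene (x) in 18 cell libraries (blue) and 18 EV libraries (orange), 1 point per library, with the median as a bar. Dnmt3a and Tet3 in EVs, with medians of 1629 and 589, stand above every cell value of the same gene, while the ranges of Dnmt1, Uhrf1, Tet2, Mbd1 and Mbd2 overlap.

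EVs were compared with their cells-of-origin to ask which members were over-represented in the secreted RNA. By edgeR's quasi-likelihood test with Benjamini-Hochberg adjustment, 5 of 10 members were called higher in EVs (Dnmt3a, Tet3, Mbd3, Tet1 and Dnmt3b) and 1 lower (Dnmt1). Of all 15281 genes tested, 38.4% were called higher and 42.2% lower, so being called was common. The median log2 fold change of the members was 0.47, beside -0.08 over all genes tested. The 18 libraries of a location come from 6 cultures, so p-values over libraries can be too small and intervals too narrow. With the doses of a culture summed, 6 against 6 with the replicate block, 4 members were called higher and 2 lower, and Dnmt3a was at 4.29 (edgeR adjusted p = 1.3e-06).

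Among the writers, the de novo methyltransferase Dnmt3a (chr12:3856007-3964443, plus strand, GRCm39) was the member with the largest difference. It ranged from 33.4 to 84.8 normalized CPM in cells with a median of 72.7, and from 829 to 2474 in EVs with a median of 1629. The lowest EV library was above the highest cell library. The fitted log2 fold change was 4.63 (SE 0.17, 95% confidence interval 4.29 to 4.96, edgeR adjusted p = 1.8e-23), a 24.7-fold difference that ranked 190 of 15281 from the top. It was higher in 18 of 18 pairs of EV and cell library, and the mean of the 3 doses of a culture lay between 12.3-fold in the female culture of set 5 and 42.8-fold in the male culture of set 3.

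Dnmt3b (chr2:153490861-153529650, plus strand), the other de novo enzyme, was rare in both locations. It ranged from 2.30 to 3.65 normalized CPM in cells, with a median of 2.92, and from 2.58 to 15.3 in EVs, with a median of 4.94. The ranges overlapped, and 15 of 18 pairs were higher in EVs. The log2 fold change was 0.83 (SE 0.16, edgeR adjusted p = 1.3e-05), but the call ended when libraries were scaled by their totals (log2 fold change 0.02, adjusted p = 0.91), in the libraries without ethanol alone (0.49, adjusted p = 0.15), with the doses of a culture summed and the replicate block in the fit (0.51, adjusted p = 0.054), and without the filter on low counts (0.20, adjusted p = 0.25).

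Dnmt1 (chr9:20817945-20871184, minus strand), the maintenance enzyme, was the 1 member called lower in EVs. Its levels were 31.8 to 150 normalized CPM in cells, with a median of 66.4, and 31.9 to 53.9 in EVs, with a median of 44.5. The EV range lay inside the cell range, and the cell libraries were spread 4.71-fold against 1.69-fold in EVs. The log2 fold change was -0.81 (SE 0.20, edgeR adjusted p = 0.00035). By culture the mean ratios of EV to cell were 0.338- to 0.491-fold in both cultures of set 3 and the female culture of set 4, 0.850- and 0.904-fold in the male cultures of sets 4 and 5, and 1.29-fold in the female culture of set 5, which was higher in EVs at all 3 doses. Without pregnancy set 3 it was -0.34 (edgeR adjusted p = 0.087) and with every library thinned to the smallest total it was -0.42 (edgeR adjusted p = 0.067), so the call was lost in both.

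Uhrf1 (chr17:56610275-56630489, plus strand), which recruits Dnmt1, ranged from 6.31 to 67.9 normalized CPM in cells with a median of 20.6, and from 13.8 to 93.8 in EVs with a median of 23.2. Its log2 fold change of -0.09 (SE 0.34, 95% confidence interval -0.78 to 0.60, edgeR adjusted p = 0.81) did not pass the threshold. That mean hid opposite directions. In the male culture of set 4 and both cultures of set 5 the ratio was 2.01- to 3.00-fold in the mean over doses, and in the female culture of set 4 and both cultures of set 3 it was 0.511- to 0.792-fold. Without set 3 the log2 fold change turned to 0.75 (edgeR adjusted p = 0.021), and without the EVs of the male culture of set 3 at 0 mg/dL alone it was -0.51 (edgeR adjusted p = 0.14).

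Among the erasers, Tet3 (chr6:83339355-83436066, minus strand) came next to Dnmt3a in EVs. It ranged from 24.4 to 205 normalized CPM in cells, with a median of 51.8, and from 246 to 784 in EVs, with a median of 589. The ranges did not overlap. A log2 fold change of 2.94 was fitted (SE 0.22, 95% confidence interval 2.49 to 3.39, edgeR adjusted p = 1.4e-14), a 7.67-fold difference, and 18 of 18 pairs were higher in EVs. By culture the mean ratio ran from 3.04-fold in the male culture of set 5 to 21.5-fold in the male culture of set 3. The opposite-strand gene Bola3 shares 1512 annotated exonic bases with Tet3, had medians of 15.9 normalized CPM in cells and 47.6 in EVs, and cannot be told apart from Tet3 in shared bases if strand was not used in counting. The library kit keeps strand, but whether the counting used it is not given in the sources used here.

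Tet1 (chr10:62640349-62744775, minus strand) was lower than Tet3 but also higher in EVs in 18 of 18 pairs. It ranged from 7.39 to 18.6 normalized CPM in cells and from 24.8 to 65.5 in EVs, with medians of 13.3 and 45.7, and the ranges did not overlap. Its log2 fold change was 1.67 (SE 0.14, edgeR adjusted p = 3.2e-13), or 3.18-fold.

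Tet2 (chr3:133169436-133250900, minus strand) differed from both. Its medians were 51.5 normalized CPM in cells and 50.0 in EVs, within ranges of 23.3 to 81.0 and 36.3 to 77.5. The log2 fold change was 0.11 (SE 0.17, 95% confidence interval -0.23 to 0.45, edgeR adjusted p = 0.56). Here too the cultures went opposite ways: the mean ratio was 2.10- to 2.44-fold in both cultures of set 3 and 0.645- to 0.656-fold in both of set 5. It was called higher by edgeR without set 5 (0.60, adjusted p = 0.0072) and with every library thinned to the smallest total (0.64, adjusted p = 0.0017).

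Of the readers, Mbd3 (chr10:80225002-80235397, minus strand) ranged from 7.44 to 16.7 normalized CPM in cells with a median of 10.4, and from 16.1 to 109 in EVs with a median of 27.3. Its fitted log2 fold change was 1.75 (SE 0.20, edgeR adjusted p = 4.7e-10), 3.37-fold, with 18 of 18 pairs higher. Across the 18 EV libraries the log2 level of Mbd3 had a Pearson r of -0.83 with the log2 library total, a description over libraries that share cultures. The highest value, 109, came from the EVs of the female culture of set 4 at 320 mg/dL, a library of 1.55 M counts, and without it the log2 fold change was 1.40. With EV libraries of at least 2 M counts alone it was 1.02 (edgeR adjusted p = 1.5e-10), and with every library thinned to the smallest total it was 2.36 (edgeR adjusted p = 1.6e-12), both still called higher. On the opposite strand the long noncoding RNA gene Gm30823 shares 687 exonic bases with Mbd3, and its median was 12 normalized CPM in cells and 628 in EVs. The correlation of Mbd3 and Gm30823 over the EV libraries was 0.14. The part of the overlapping gene in the result was not tested.

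Mbd2 (chr18:70701260-70762203, plus strand), found in a repressor complex of its own with NuRD, had medians of 43.7 normalized CPM in cells and 43.3 in EVs, within ranges of 34.2 to 62.7 and 29.9 to 95. Mbd1 (chr18:74400676-74415803, plus strand), which binds methylated CpGs in gene promoters, had medians of 26.5 and 22.5, within ranges of 18.4 to 30.2 and 15.3 to 34.2. Both ranges overlapped. The log2 fold changes were -0.04 (SE 0.11, edgeR adjusted p = 0.75) for Mbd2 and -0.16 (SE 0.075, edgeR adjusted p = 0.054) for Mbd1, and neither passed the threshold. Other settings moved both. Mbd1 was called lower by edgeR without set 3 (-0.27, adjusted p = 0.0088), with EV libraries of at least 2 M counts (-0.28, adjusted p = 0.0065) and with the doses of a culture summed and the replicate block (-0.47, adjusted p = 0.029). Mbd2 was called lower with EV libraries of at least 2 M counts (-0.32) and higher without set 5 (0.27). Without the EVs of the male culture of set 3 at 0 mg/dL the values were -0.29 for Mbd2 and -0.40 for Mbd1, and without those of the female culture of set 4 at 320 mg/dL they were -0.32 and -0.33, all called lower by edgeR, though the filter and scaling changed along with the library, to 16994 and 16925 genes tested. With every library thinned to the smallest total both were called higher, at 0.43 for Mbd2 and 0.35 for Mbd1.

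**Figure D2:**
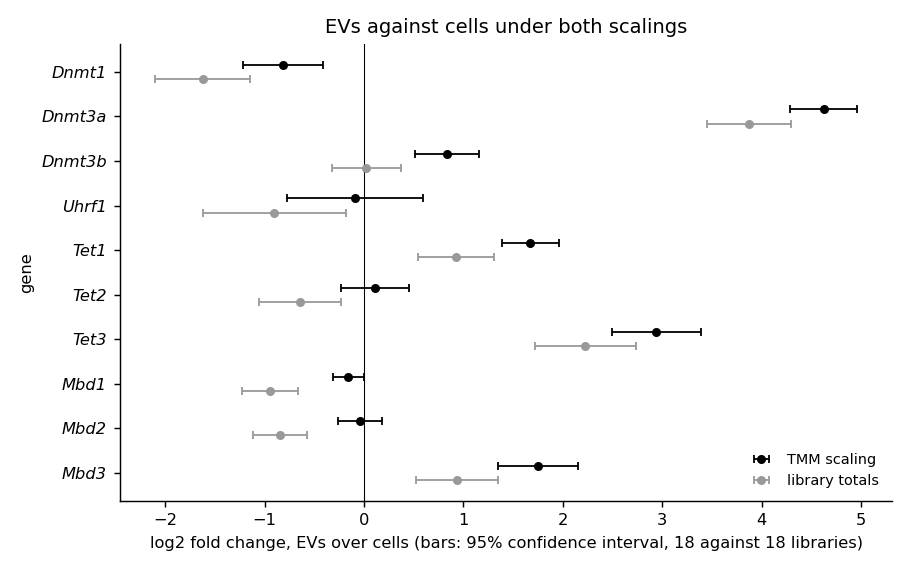
Fitted log2 fold change of EVs over cells (x) for each gene (y), with 95% confidence intervals over 18 against 18 libraries, after TMM scaling (black) and after scaling by library totals (grey). Dnmt3a, Tet3, Tet1 and Mbd3 lie right of 0 and Dnmt1 left of 0 under both, whereas Uhrf1, Tet2, Mbd1 and Mbd2 lie near 0 after TMM and left of 0 after library totals, and Dnmt3b moves from 0.83 to 0.02.

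The scaling moved all genes together. With library totals the median log2 fold change of all genes was -0.88 beside -0.08 with TMM. Under library totals Dnmt3a was at 3.87, Tet3 at 2.23, Mbd3 at 0.94 and Tet1 at 0.92, all still called higher by edgeR, and 5 members were called lower: Dnmt1 (-1.62), Mbd1 (-0.95), Uhrf1 (-0.91), Mbd2 (-0.85) and Tet2 (-0.64). The calls of Uhrf1, Tet2, Mbd1, Mbd2 and Dnmt3b therefore differed between the scalings, and the sign of Tet2 did too.

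Other genes of the pathway were split in the same comparison. Of the 10 listed partners of the writers 8 were tested, and 2 were called higher and 5 lower in EVs, with a median log2 fold change of -1.08. Usp7, a deubiquitinase that stabilises Dnmt1 and Uhrf1, was higher by 4.04 (SE 0.22, edgeR adjusted p = 1.4e-18), and Trim28, a corepressor at imprinted and repeated DNA, by 1.23 (SE 0.17). The chromatin remodeller Hells, needed for methylation of repeats, fell by 1.84 and the tRNA methyltransferase Trdmt1 fell by 1.54. Of 14 genes of demethylation and base repair 4 were called higher and 8 lower (median -0.83). Tdg, the glycosylase that excises oxidised methylcytosine, was higher by 3.34 (SE 0.17, edgeR adjusted p = 3.9e-19), with 10.95 to 18.8 normalized CPM in cells and 69.4 to 325 in EVs, and Smug1 by 1.5. Ogt, which binds TET proteins, fell by 2.58, and Gadd45b by 2.01.

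Of 6 other methyl-CpG readers 4 were called higher and 1 lower, with a median of 0.65. Mbd6 was higher by 1.63 (SE 0.22, edgeR adjusted p = 2.8e-08), while Zbtb33 fell by 0.62. The 13 NuRD subunits gave 5 calls in each direction and a median of 0.11, led by Chd5 at 2.13 and Cdk2ap1 at 1.10 on the one side and by Rbbp7 (-1.74) and Hdac2 (-1.71) on the other. Mbd3, at 1.75, was thus higher in EVs while the histone-binding subunit Rbbp7 and the deacetylase Hdac2 of the same complex were lower. Of 16 genes that supply the methyl donor or 2-oxoglutarate 3 were called higher and 12 lower (median -1.05). Mat2a, which makes S-adenosylmethionine, fell by 3.37 (SE 0.14, edgeR adjusted p = 4.7e-22), from a median of 126 normalized CPM in cells to 12.4 in EVs, whereas its regulatory partner Mat2b was higher by 3.39 and Idh3a fell by 2.08. Of 14 S-phase genes 2 were called higher (Ccne2 by 3.40, Mcm7 by 1.12) and 7 lower (median -0.65, led by Pcna at -2.40 and Mcm6 at -1.74). With library totals, under which 3435 of all genes were called higher and 9279 lower, the lists had in the order given 2, 2, 2, 1, 2 and 1 genes called higher and 6, 10, 2, 10, 13 and 12 called lower.

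In cells, Uhrf1, Dnmt1 and Tet2 were set apart by culture at every dose. Uhrf1 lay between 27.4 and 67.9 normalized CPM in the female and male cultures of set 3 and the female culture of set 4 (9 libraries), and between 6.31 and 13.8 in the male culture of set 4 and both cultures of set 5. The libraries of these cultures did not overlap, whichever dose they had. Dnmt1 lay between 76.1 and 150 normalized CPM in the first 3 of these cultures and between 31.8 and 56.7 in the others, also without overlap. Tet2 was ordered the other way, with 23.3 to 38.8 in the first 3 cultures and 64.1 to 81.0 in the others. Tet3 was not split in this way. It was 24.4 to 37.2 in the male culture of set 3, which overlapped the 30.1 to 51.2 of the female one, and highest in the male culture of set 5 at 134 to 205. The labels do not group the cultures in this way, and the split was not tested.

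The summed level of 14 S-phase genes followed the same cultures. It was 791 to 874 normalized CPM in the female culture of set 3, 959 to 1246 in the male culture of set 3 and 650 to 734 in the female culture of set 4, but 348 to 367, 314 to 407 and 326 to 403 in the male culture of set 4 and the female and male cultures of set 5. Over the 18 cell libraries the log2 levels of Uhrf1 and Dnmt1 had a Pearson r of 0.98 and 0.97 with this sum and of 0.98 with each other, and Tet2 had -0.95 with the sum and -0.93 with Uhrf1. The summed stem cell markers also moved with these genes, with r of 0.79 for Uhrf1, 0.75 for Dnmt1 and -0.84 for Tet2, and for Dnmt3a they had -0.81 where the S-phase sum had -0.61. These are descriptions over libraries that share cultures, and the part of cell division or of stem cell content in the levels was not tested. In bulk RNA, fewer dividing cells and less RNA per cell cannot be told apart. In EVs the S-phase sum lay between 487 and 878 normalized CPM and did not order the cultures in this way, and the correlations with it were 0.18 for Uhrf1, -0.25 for Dnmt1 and 0.22 for Tet2.

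**Figure D3:**
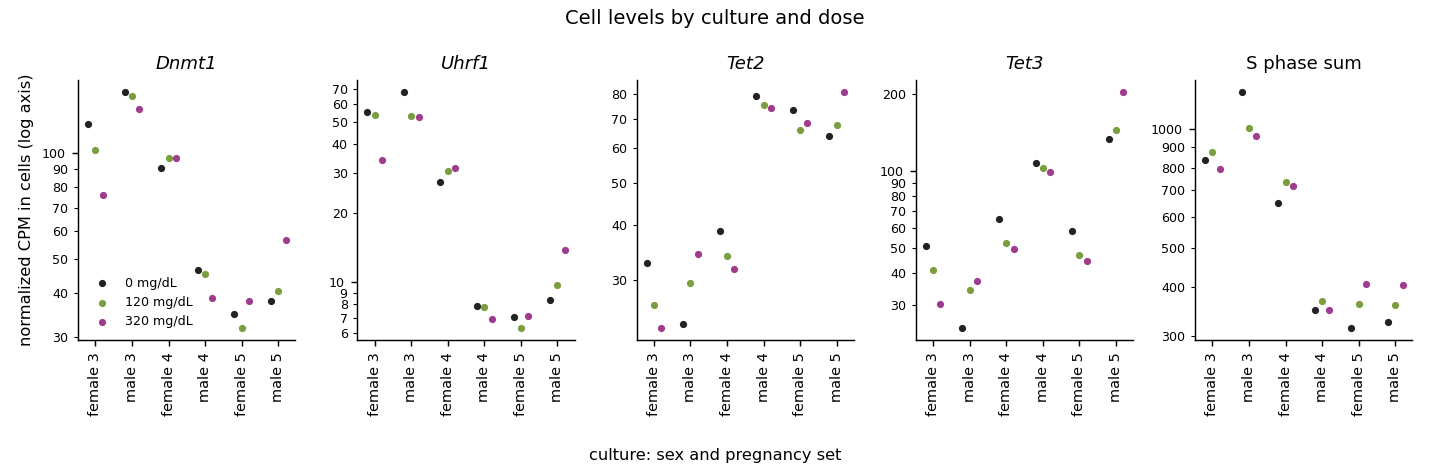
Normalized CPM in cells (y, log axis) of Dnmt1, Uhrf1, Tet2, Tet3 and the sum of 14 S-phase genes in each culture (x, sex and pregnancy set), 1 point per dose. Dnmt1, Uhrf1 and the S-phase sum are high in female 3, male 3 and female 4, where Tet2 is low, at all 3 doses.

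The genes most like each member over the cell libraries were named by the correlation of log2 levels among 17792 genes, a description over 18 libraries that share 6 cultures. Dnmt1 was closest to the replication ligase Lig1 (r = 0.99), Parp1 and the helicase subunit Mcm6, and Uhrf1 to the licensing factor Cdt1 (r = 0.99), the ribonucleotide reductase subunit Rrm2 and Trmt61a. Tet2 was closest to Lrch3 (r = 0.99), Braf and Peli2, and Tet3 to Ccdc88c (r = 0.98), Pik3cb and Abtb2. Dnmt3a was closest to Crim1 (r = 0.94), Dvl3 and Bptf, and Tet1 to Fam227a (r = 0.94), Dlg3 and Tnpo1. The closest gene reached 0.96 for Mbd2 (Rdh5), 0.94 for Mbd1 (Cog1), 0.83 for Dnmt3b (Ankrd7) and 0.79 for Mbd3 (Zfp106).

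Because the cell levels of Dnmt1 and Uhrf1 correlated with those of replication genes, which E2F transcription factors are known to regulate, the 250 bases before each RefSeq transcription start were searched for the E2F-type motifs TTTCCCGC, TTTGGCGC, TTTCGCGC and TTTGCCGC on both strands. The table of starts (RefSeq, GRCm38.p6) held 8 of the 10 members with 13 starts, and 2 starts had a match, 1 of the 3 starts of Dnmt1 and 1 of the 2 starts of Uhrf1. Over all 32851 starts 1.86% had one. The stretches of 30 bases around both matches are shown 5′ to 3′ on the strand of the gene with the motif in capitals, since they hold the motif that both genes share.
Dnmt1: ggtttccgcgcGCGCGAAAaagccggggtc
Uhrf1: cccgagtcgggTTTCGCGCgcccaggcgtc
On GRCm39, where both were placed by exact match, they lie at chr9:20864120-20864149 (minus strand) and chr17:56611117-56611146 (plus strand). The motif is TTTCGCGC in each, on the opposite strand in Dnmt1, and each window held 1 match. In Dnmt1 the motif lies 219 bases before the third start listed, yet the stretch of 30 bases begins 126 bases after the start of the canonical GENCODE transcript. That stretch overlaps exons of 21 and the untranslated part of 20 of the 22 transcripts there. In Uhrf1 the motif lies 185 bases before the second start listed. Its stretch begins 842 bases after the canonical start and overlaps an exon of 1 of 21 transcripts. A match of letters is a description and not a binding site.

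In EVs the cultures were ordered differently from the cells. Dnmt3a was lowest in the female culture of set 5 with 829 to 1170 normalized CPM and highest in the male culture of set 4 with 2249 to 2474, and these ranges did not overlap with each other. Tet3 was lowest in the same female culture of set 5, with 246 to 352. It was 650 to 724 in the male culture of set 4, which lay within the 506 to 784 of the female and 591 to 759 of the male culture of set 3. Over the 18 EV libraries Dnmt3a and Tet3 had a Pearson r of 0.91, and Tet1 had 0.82 with Dnmt3a and 0.80 with Tet3, while over the 18 cell libraries the same pairs had 0.54, 0.08 and 0.01. All points of either kind share a library's scaling and come in groups of 3 per culture. The correlation with the library total was -0.01 for Dnmt3a, -0.15 for Tet3 and -0.37 for Tet1.

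**Figure D4:**
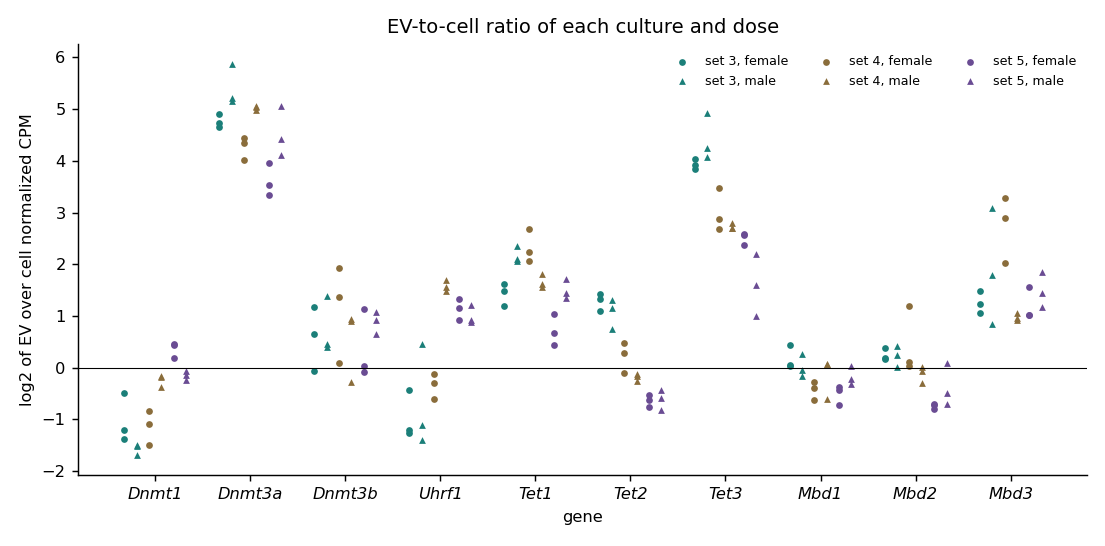
Log2 of the EV over the cell level (y) of each gene (x) for the 18 pairs of libraries, with colours for the pregnancy set, circles for female and triangles for male cultures. Dnmt3a, Tet3, Tet1 and Mbd3 are above 0 in all 18 pairs, while Uhrf1, Dnmt1, Tet2 and Mbd2 lie on both sides of 0 by culture.

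Ethanol was compared with control in cells and in EVs with the culture as a block. In cells at 120 mg/dL none of 10 members passed edgeR's threshold, as none of 17792 genes did (0% called, 444 genes with an unadjusted p under 0.05, and 4 called by DESeq2). At 320 mg/dL in cells again 0 of 10 members were called, beside 0.0393% of all genes. The unadjusted edgeR p was under 0.05 for 1 member at 120 mg/dL, beside 444 of 17792 genes. At 320 mg/dL it was under 0.05 for 2 members, beside 1525 of 17792 genes. DESeq2 called no member at either dose, beside 4 of all genes at 120 mg/dL and 96 at 320 mg/dL. Across the members the log2 fold changes ran from -0.27 to 0.10 at 120 mg/dL (median -0.08, and -0.01 over all genes) and from -0.34 to 0.10 at 320 mg/dL (median -0.04, and -0.01 over all genes). The 95% confidence intervals reached at most -0.60 and 0.38, so that changes beyond those sizes lay outside every interval.

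Mbd3 had the largest difference in cells. It was 9.64 to 16.7 normalized CPM without ethanol (median 12.2), 8.74 to 12.9 at 120 mg/dL (median 9.90) and 7.44 to 11.4 at 320 mg/dL (median 10.1). The ranges overlapped, but in 6 of 6 cultures the library at 320 mg/dL was below its control. The log2 fold change at 320 mg/dL was -0.34 (SE 0.12, edgeR unadjusted p = 0.013, adjusted p = 0.44), and it did not pass the threshold. Mbd1 was also below its control in 6 of 6 cultures at each dose, with medians of 27.9, 26.8 and 25.6 normalized CPM at 0, 120 and 320 mg/dL and a log2 fold change of -0.15 at 320 mg/dL (SE 0.056, edgeR unadjusted p = 0.022, adjusted p = 0.49). The share of all genes with 6 of 6 cultures in the same direction is not given here.

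The writers and erasers gave no such pattern in cells. Medians at 0, 120 and 320 mg/dL were 68.8, 70.9 and 66.4 normalized CPM for Dnmt1, 72.7, 72.7 and 72.5 for Dnmt3a and 17.9, 20.04 and 22.6 for Uhrf1. For the erasers they were 13.1, 14.6 and 13.99 for Tet1, 51.5, 50.2 and 51.5 for Tet2 and 61.7, 49.7 and 47.2 for Tet3. Within each gene the ranges of the 3 doses overlapped, and 2 to 4 of 6 cultures were higher with ethanol than without. The intervals of Dnmt3a at 320 mg/dL (-0.17 to 0.38) and of Dnmt1 (-0.31 to 0.22) both include 0.

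In EVs 0 of 10 members were called at 120 mg/dL, beside 0.00842% of 11880 genes, and 0 of 10 at 320 mg/dL, beside 0.0842%. DESeq2 called none of the members, beside 12 of all genes at 120 mg/dL and 267 at 320 mg/dL. It gave an adjusted p to only 2 of the 10 at 120 mg/dL and 9 of the 10 at 320 mg/dL, so the others could not be called by it. The unadjusted edgeR p was under 0.05 for no member at 120 mg/dL, beside 6.26% of all genes, and for 1 at 320 mg/dL, beside 11.9%. That member was Tet3, at 352 to 784 normalized CPM without ethanol (median 663), 246 to 724 at 120 mg/dL (median 589) and 269 to 719 at 320 mg/dL (median 458). The ranges overlapped widely, and in 6 of 6 cultures the value at 320 mg/dL was below that culture's control. Its log2 fold change was -0.39 (SE 0.17, 95% confidence interval -0.74 to -0.04, edgeR unadjusted p = 0.032, adjusted p = 0.37), which did not pass. Mbd2 in EVs was also below its control in 6 of 6 cultures, at 120 mg/dL (log2 fold change -0.28, SE 0.18, edgeR adjusted p = 0.84). For EVs too, the share of all genes with 6 of 6 cultures in the same direction is not given here. Dnmt3a in EVs had medians of 2020.5, 1618 and 1544 normalized CPM at 0, 120 and 320 mg/dL, was below control in 4 of 6 cultures at each dose and had a log2 fold change of -0.18 at 320 mg/dL (SE 0.19, edgeR adjusted p = 0.80).

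Dnmt3b and Uhrf1 had the widest EV intervals. Dnmt3b at 320 mg/dL had a log2 fold change of 0.43 with a 95% confidence interval of -0.26 to 1.12, and Uhrf1 had -0.27 with -0.84 to 0.30. A 2-fold rise of Dnmt3b at that dose therefore lies within its interval. For Uhrf1 1 control library stood apart, the EVs of the male culture of set 3, at 93.8 normalized CPM (310 counts) beside 13.8 to 25.2 in the other 5 controls. Without that library its log2 fold change was -0.07 at 120 mg/dL and 0.20 at 320 mg/dL (edgeR adjusted p = 1 and 0.65).

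**Figure D5:**
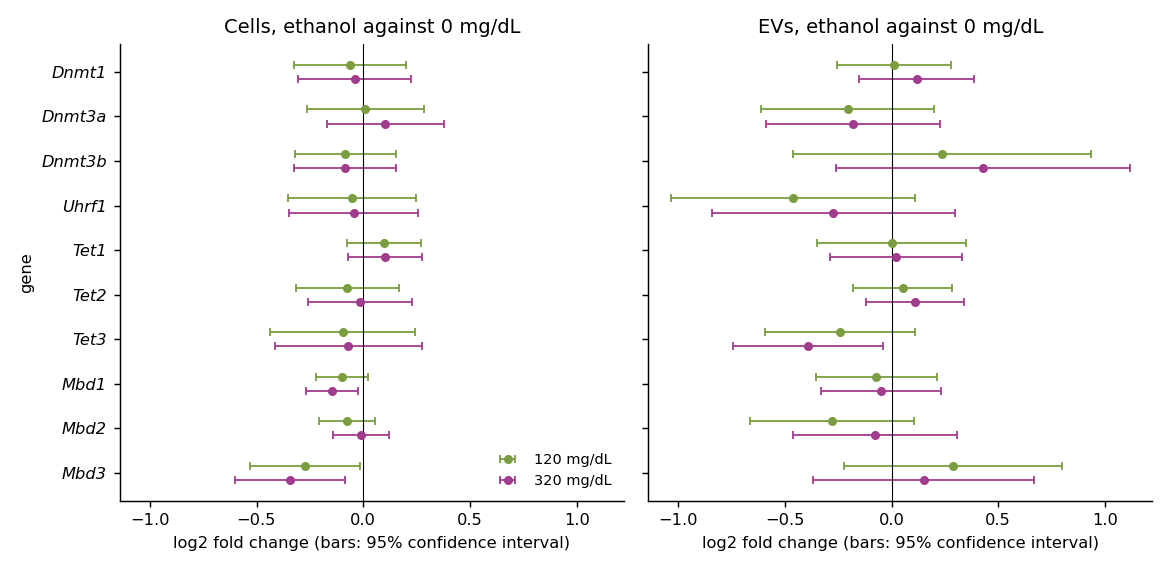
Log2 fold change with ethanol (x) of each gene (y) in cells (left) and EVs (right) at 120 mg/dL (green) and 320 mg/dL (purple), with 95% confidence intervals from the fit over 6 cultures. All intervals but those of Mbd3 in cells at both doses, Mbd1 in cells at 320 mg/dL and Tet3 in EVs at 320 mg/dL include 0, and none of the 40 values passed the adjusted threshold.

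The study asked whether ethanol shifted RNA from cells into EVs, and the EV-to-cell ratio of each dose was set against that of control. None of 10 members was called at 120 mg/dL (0.00534% of 18728 genes) or at 320 mg/dL (0%, with 224 genes at an unadjusted p under 0.05 and 0 called by DESeq2). No member had an unadjusted p under 0.05 at either dose, and DESeq2 called none. The log2 changes of the ratio ran from -0.45 to 0.49 at 120 mg/dL and from -0.32 to 0.57 at 320 mg/dL, with standard errors of 0.30 to 0.62. This fit blocks the pair of EV and cell library and not the culture that the doses share. Dnmt3a was at -0.32 (95% confidence interval -1.33 to 0.69) and Tet3 at -0.32 (-1.60 to 0.95) at 320 mg/dL, and Mbd3 at 0.44 (-0.32 to 1.19). With a location term for each culture added to the replicate block, an alternative chosen after seeing the data, the standard errors were 0.18 to 0.36 and again 0 of 10 members were called at either dose. Of all genes, 2 were then called at 120 mg/dL and 0 at 320 mg/dL, with 627 and 1006 at an unadjusted p under 0.05. In that fit Dnmt3a was at -0.33 (95% confidence interval -0.88 to 0.23), Tet3 at -0.37 (-0.91 to 0.17) and Mbd3 at 0.45 (-0.05 to 0.96) at 320 mg/dL. Mbd3 at 120 mg/dL, at 0.50 (edgeR unadjusted p = 0.049, adjusted p = 1), was the 1 member with an unadjusted p under 0.05.

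Female and male cultures were compared after summing the counts of the 3 doses, 3 against 3 in pairs by pregnancy. No member was called in cells (0.0334% of all genes, with 1632 of 20972 at an unadjusted p under 0.05 and 315 called by DESeq2). None was called in EVs (0%, with 3076 of 14847 genes at an unadjusted p under 0.05 and 8 called by DESeq2). None of the members had an unadjusted p under 0.05 in edgeR in either. DESeq2 called none in either, with an adjusted p for all 10 in cells and for 6 of the 10 in EVs. In EVs Dnmt3a, Tet1, Tet3 and Mbd1 were lower in the female than in the male culture in 3 of 3 pregnancies. Their log2 differences, female over male, were -0.58 (SE 0.44) for Dnmt3a, -0.37 (SE 0.18) for Tet1, -0.57 (SE 0.31) for Tet3 and -0.39 (SE 0.17) for Mbd1, with edgeR adjusted p from 0.26 to 0.46. For Dnmt3a the set 3 means over doses were close, at 1812 normalized CPM in female and 1838 in male EVs. The share of all genes with 3 of 3 pregnancies in the same direction is not given here. In cells the log2 differences of the members ran from -0.79 for Tet3 to 0.28 for Uhrf1. There the female culture was higher in 3 of 3 pregnancies for Dnmt3a, 2 of 3 for Tet1 and 1 of 3 for Tet3 and Mbd1. Sex was not separate from culture here, as each pregnancy gave 1 culture of each sex. In set 4 the female and male cultures differed widely, with Uhrf1 at 27.4 to 31.4 normalized CPM in female and 6.91 to 7.83 in male cells. Whether that gap goes with sex or with the culture cannot be told apart.

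Of the 6 pathway lists, no gene that was tested was called by edgeR in any ethanol, ratio or sex comparison. The most genes of a list with an unadjusted p under 0.05 were 4 of the 13 demethylation and base repair genes tested in EVs at 320 mg/dL, where 11.9% of all genes had such a p.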

How the data were processed

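RNA of 18 cell and 18 EV samples was sequenced after ribosomal RNA depletion. The authors trimmed and deduplicated the reads, used STAR for alignment to mm39 and HTSeq for counting, and what was deposited is a table of raw counts for each gene. Libraries were made with a stranded kit, but the strand setting of the counting and the annotation release are not given in the sources used here. Counts were tested with edgeR 4.0.16 (R 4.3.3) by its quasi-likelihood test with TMM scaling, filterByExpr (minimum count 10, minimum total 15) and Benjamini-Hochberg adjustment over all genes tested, at 0.05. EVs were compared with cells with terms for sex and dose, doses with the culture as a block, the EV-to-cell ratio as an interaction with the pair as a block, and sexes on counts summed over doses with the pregnancy as a block. Log2 ratios of pairs used a pseudocount of 0.5.

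Libraries were paired because they came from the same culture or pregnancy. Deviations of the same culture at 120 and 0 mg/dL had a median correlation of 0.74 in cells and 0.28 in EVs, matched EV and cell libraries 0.071, and female and male of a pregnancy 0.052 in cells and -0.18 in EVs. All 10 genes were named in every comparison, together with up to 2 genes in each direction of 6 pathway lists and the 3 genes most correlated with each over the cell libraries. Some genes that this rule names are not reported here. The members and lists were chosen with earlier results of these data known. Alternatives were DESeq2 1.42.0 and its size factors, library totals, no filter, each pregnancy left out, other blocks, thinning and subsets of libraries. The fits were first run on simulated counts drawn without any culture or pair effect, so that run could not show the effect of shared cultures. Cell libraries held 26.6 to 55.3 M counts and EV libraries 0.959 to 5.51 M.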

Additional observations from a re-analysis of the deposited data

Results flagged for a closer look

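In 60 groups of 6 libraries of a gene, location and dose, 5 held a library far from the others, where chance gives about 1 in 20. All 5 were EV libraries. Uhrf1 was at 93.8 normalized CPM in the male culture of set 3 at 0 mg/dL, beside 13.8 to 25.2 in the others, and at 18.7 in the female culture of set 5 at 320 mg/dL, beside 23.7 to 26.0. The EV library of the female culture of set 4 at 320 mg/dL, with 1.55 M counts, stood apart for Dnmt3b (15.3 beside 4.37 to 6.06), Mbd2 (95 beside 32.5 to 46.8) and Mbd3 (109 beside 16.1 to 41.0).

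For Tet2 the log2 ratio of EVs over cells was above 0 in every pair of set 3, with a mean of 1.18, and below 0 in every pair of set 5, with a mean of -0.62. The difference of 1.80 was not tested.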

How the results depend on the processing

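The 5 genes called higher in EVs stayed within 1.5 times that count in every alternative run, but not always as the same genes: Dnmt3b was not called in 4 settings and not tested when thinned, Uhrf1 was called higher without set 3, Tet2 and Mbd2 without set 5, and Tet2, Mbd1 and Mbd2 when thinned. The count called lower, 1 gene, was 5 with library totals, 4 without the filter on low counts, 0 of 9 tested with libraries thinned to the smallest total, 2 with counts summed over doses, and 3 with EV libraries of at least 2 M counts or with either EV library that stood apart left out. The sums, the minimum of 2 M counts and the left-out libraries were chosen after seeing the data. Without set 3 the 1 gene called lower was Mbd1. Tet2 turned to -0.64 with library totals and -0.51 without the filter and was 0.64 when thinned, Mbd2 to 0.43 and Mbd1 to 0.35 when thinned. With each pregnancy set left out in turn, Uhrf1 ran from -0.28 to 0.75, positive without set 3, and Mbd2 from -0.14 to 0.27, positive without set 5. The cause was not tested. With the replicate block for the pair of EV and cell library, 5 genes were called higher and 1 lower, and Dnmt3a was at 4.62. That block changed no call, nor did leaving out the block in any other comparison. In the ethanol, ratio and sex comparisons none of the 10 was called under any alternative, a location term for each culture in the ratio's replicate block included, but DESeq2 gave no adjusted p to 8 of them in EVs at 120 mg/dL, 1 at 320 mg/dL and 4 between the sexes in EVs. EV libraries held 3 to 27 counts of Dnmt3b and 9 to 118 of Mbd1.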
